A study of Homo sapiens with 16 samples.

Results

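The genes described here are 10 partners with which KMT2A is fused in acute leukaemia: AFF1, AFF3, AFDN, MLLT1, MLLT3, MLLT6, MLLT10, ELL, EPS15 and CREBBP. They were chosen as known partners and not by a measured value, but with earlier results of these data known. A cleavage cluster region (CCR), a short stretch where DNA bound in TOP2A cleavage complexes piled up, was assigned to a gene when its centre lay within the RefSeq gene body on hg38 or the 2 kb on either side. The 10 genes held 1100 of the 1469949 CCRs in 5 deposited lists, and 9 of the 10 genes lay in sequence where CCRs could be called. MLLT6 did not, and is given separately. For comparison, 18973 of 20037 protein-coding genes were measured.

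The lists came from K562, an established human cell line derived from chronic myeloid leukaemia, with the BCR-ABL1 fusion of that disease. Cells were exposed to 25 µM etoposide, 50 µM genistein or 2 µM mitoxantrone for 1 h, to 8 µM p-benzoquinone for 4 h, or to the vehicle; every culture, the vehicle cultures included, held 0.05% DMSO. The protocol gives the vehicle both exposure times without saying which library had which, so whether the times of a poison and of DMSO match is unknown. Of 16 libraries, 14 held TOP2A-bound DNA of poison- or vehicle-treated cells and 2 held input DNA. The descriptions tie 3 pre-amplified libraries to the etoposide list, 2 to the genistein list, 2 to the p-benzoquinone list and 3 to the DMSO list, and the mitoxantrone list was tied to its 1 library by treatment. For another p-benzoquinone library the title says unamplified but the description amplified. Titles of treated libraries have 2 forms, with the number 4 or with K562, and what the forms stand for is not stated. Genistein and mitoxantrone libraries have only the first form, p-benzoquinone libraries only the second, and etoposide and DMSO libraries both. Genistein, mitoxantrone and p-benzoquinone thus differ from DMSO in their mix of forms, and its part in the ratios was not tested. Each treatment was pooled by the authors into a single list, so no value has a replicate, no test between treatments is possible, and all intervals below are 95% intervals that cover counting error only.

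Topoisomerase II alpha (TOP2A) cuts both strands of a duplex, passes another duplex through the break and reseals it. TOP2 poisons such as etoposide and mitoxantrone leave the enzyme covalently held on the cut DNA, and leukaemias that arise after treatment with them often carry KMT2A rearrangements. In such a rearrangement the 5′ part of KMT2A, a histone methyltransferase, is joined to the 3′ part of a partner. Many frequent partners (AFF1, AFF3, MLLT1, MLLT3, MLLT10 and ELL) belong to complexes that promote transcription elongation or bind the methyltransferase DOT1L, whereas AFDN and EPS15 are cytoplasmic adaptors and CREBBP is a histone acetyltransferase.

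The first comparison asks how densely the partner genes were covered by CCRs in each list. CCRs lay in the 9 measured partners at close to the genome-wide density under every treatment. The partners together held 134 CCRs under etoposide, 311 under genistein, 144 under mitoxantrone, 272 under p-benzoquinone and 239 under DMSO, out of 182582, 415215, 202865, 359249 and 310038 in those lists. Relative to the genome mean of the same list, CCR density in the partners was 1.04 under etoposide (exact Poisson interval 0.873 to 1.23), 1.06 under genistein (0.949 to 1.19), 1.01 under mitoxantrone (0.850 to 1.19), 1.08 under p-benzoquinone (0.951 to 1.21) and 1.10 under DMSO (0.961 to 1.24). All 5 intervals included 1. The median over the 9 partners was 0.849 under etoposide, 1.07 under genistein, 1.09 under mitoxantrone, 1.06 under p-benzoquinone and 1.02 under DMSO, beside medians over all measured genes of 0.910, 0.919, 0.882, 1.12 and 1.00 in the same order of lists. Cover, the share of a gene's window covered by CCRs over the genome mean, was above 1 in 4 of 9 partners under etoposide (42.7% of all measured genes), in 5 under genistein (41.4%), in 4 under mitoxantrone (40.6%), in 6 under p-benzoquinone (54.7%) and in 6 under DMSO (48.4%).

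**Figure D1:**
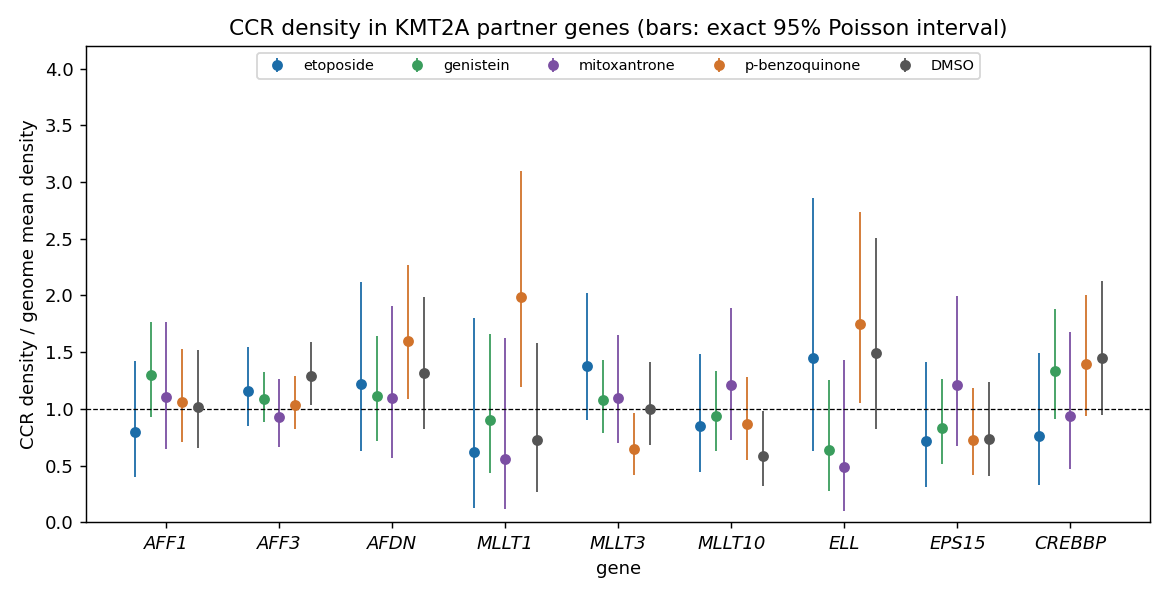
CCR density of each measured partner gene relative to the genome mean of the same list (y axis, no unit; 1 is the genome mean), with 1 point per list, in the order etoposide, genistein, mitoxantrone, p-benzoquinone and DMSO, and bars for exact 95% Poisson intervals. Of 45 intervals 39 cross 1, and the widest belong to the shorter genes MLLT1 and ELL.

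Of the 45 densities, 6 had an interval that excluded 1. The higher ones were AFF3 under DMSO, and AFDN, MLLT1 and ELL under p-benzoquinone. The lower ones were MLLT3 under p-benzoquinone and MLLT10 under DMSO. None of these 6 came from etoposide, genistein or mitoxantrone. The share of all measured genes with such an interval was not counted, so the number is a description only.

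AFF3 and AFF1 encode scaffold proteins of the super elongation complex family. AFF3 (chr2:99545419-100142590, minus strand, 597 kb) is the longest partner and held 353 CCRs, 32.1% of all that lay in the partners. They numbered 46 under etoposide, 98 under genistein, 41 under mitoxantrone, 81 under p-benzoquinone and 87 under DMSO. Density over the genome mean was between 0.929, under mitoxantrone, and 1.29 under DMSO (interval 1.03 to 1.59), so the vehicle list was the densest. One p-benzoquinone CCR of 410 bp, chr2:100142269-100142678, covered the annotated start of AFF3. The 250 bases before that start are shown because they were the only annotated promoter stretch of a partner that a CCR reached. They come from RefSeq (GRCh38.p14, chr2:100142591-100142840, minus strand, 53.6% G and C), and capitals mark the 88 bases inside the CCR.
AFF3 promoter: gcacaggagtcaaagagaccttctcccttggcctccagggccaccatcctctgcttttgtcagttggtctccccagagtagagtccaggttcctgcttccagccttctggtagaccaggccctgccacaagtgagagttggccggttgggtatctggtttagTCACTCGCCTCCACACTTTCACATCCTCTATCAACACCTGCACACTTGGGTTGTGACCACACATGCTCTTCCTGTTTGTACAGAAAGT

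AFF1 (chr4:86935011-87141039, plus strand, 206 kb) is the most frequent partner in infant acute lymphoblastic leukaemia. It held 11 CCRs under etoposide, 41 under genistein, 17 under mitoxantrone, 29 under p-benzoquinone and 24 under DMSO. Density over the genome mean was lowest under etoposide, at 0.793 (0.396 to 1.42), and highest under genistein, at 1.30 (0.932 to 1.76), and every interval included 1.

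MLLT1 and MLLT3 encode paralogous YEATS-domain proteins that read acylated histone tails. MLLT3 (chr9:20341669-20622499, minus strand, 281 kb) held 26 CCRs under etoposide, 46 under genistein, 23 under mitoxantrone, 24 under p-benzoquinone and 32 under DMSO. Its density over the genome mean was highest under etoposide, at 1.38 (0.902 to 2.02), and lowest under p-benzoquinone, at 0.648 (0.415 to 0.964). MLLT1 (chr19:6210381-6279975, minus strand, 69.6 kb) held 3, 10, 3 and 19 CCRs under etoposide, genistein, mitoxantrone and p-benzoquinone, and 6 under DMSO. The paralogs therefore stood at opposite ends under p-benzoquinone, where the density of MLLT1 was 1.99 (1.20 to 3.10), the highest of any partner in any list. In the 1 Mb on each side, p-benzoquinone density over the genome mean was 1.13 around MLLT1 and 0.435 around MLLT3. Set against those flanks instead of the genome, density under p-benzoquinone was 1.76 for MLLT1 and 1.49 for MLLT3.

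The low flanking value of MLLT3 came from 1 side. The Mb below the gene had 0.863 of the genome density under etoposide, 1.03 under genistein, 0.858 under mitoxantrone, 0.761 under p-benzoquinone and 0.891 under DMSO. The Mb above it, on the side of its transcription start, had 0.166, 0.226, 0.150, 0.108 and 0.116 in the same order. Summed over the 5 lists, the 200 kb bin that holds the start of MLLT3 had 77 CCRs, the next bin 11 and the one after that 2. MLLT3 itself lay on the dense side of this edge in all 5 lists. K562 is known to lack part of the short arm of chromosome 9, where the upper flank lies; copy number was not measured here and its part in the counts was not tested.

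**Figure D2:**
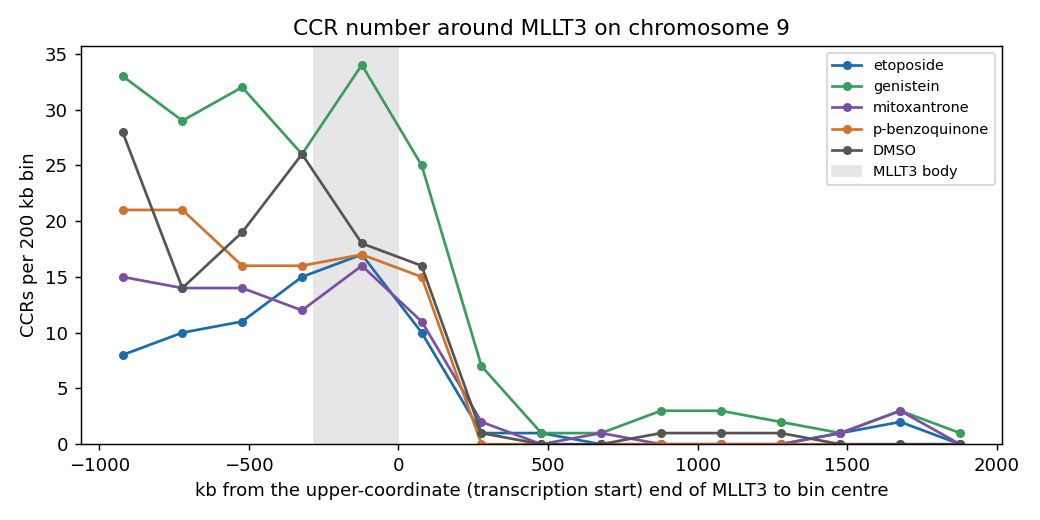
Number of CCRs per 200 kb bin (y axis) by distance of the bin centre from the upper-coordinate end of MLLT3, where its transcription starts (x axis, kb), 1 line per list; grey marks the gene body. Counts drop in all 5 lists within the 2 bins above the gene, where the sum over lists goes down to 11 and then 2.

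MLLT10 (chr10:21533756-21743630, plus strand, 210 kb), a cofactor of DOT1L, held 12 CCRs under etoposide, 30 under genistein, 19 under mitoxantrone, 24 under p-benzoquinone and 14 under DMSO. Its vehicle density was 0.583 of the genome mean (0.319 to 0.979), the lowest of any partner under DMSO, while poison densities lay between 0.849 and 1.21. ELL (chr19:18442663-18522070, minus strand, 79.4 kb), an RNA polymerase II elongation factor, held 8, 8, 3 and 19 CCRs under etoposide, genistein, mitoxantrone and p-benzoquinone, and 14 under DMSO. Its densities over the genome mean spread the most after those of MLLT1, from 0.490 under mitoxantrone (0.101 to 1.43) to 1.75 under p-benzoquinone (1.05 to 2.74). The 1 Mb on each side of ELL was also dense under p-benzoquinone, at 1.36 of the genome mean, and set against it the density of ELL was 1.29.

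MLLT6 (chr17:38705273-38729795, plus strand), which like MLLT10 encodes a PHD-finger protein, had no CCR in any list. It lay inside a stretch of 3.08 Mb (chr17:35765034-38849000) that held no CCR in any of the 5 lists and where none of its window counted as callable. MLLT6 is therefore taken as not measured and not as free of cleavage. The cause of the empty stretch was not tested.

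The remaining partners have roles outside the elongation complexes. AFDN (chr6:167826564-167972023, plus strand, 145 kb), the junction adaptor afadin, held 12 CCRs under etoposide, 25 under genistein, 12 under mitoxantrone, 31 under p-benzoquinone and 22 under DMSO. It was the one partner above the genome mean in every list, from 1.09 under mitoxantrone to 1.60 under p-benzoquinone (1.08 to 2.26). Set against its flanks, its p-benzoquinone density was 1.12. EPS15 (chr1:51354263-51519266, minus strand, 165 kb), an adaptor in clathrin-mediated endocytosis, held 8, 21, 15 and 16 CCRs under etoposide, genistein, mitoxantrone and p-benzoquinone, and 14 under DMSO. Only under mitoxantrone was its density above the genome mean, at 1.21 (0.677 to 1.99). CREBBP (chr16:3725054-3880713, minus strand, 156 kb) held 8 CCRs under etoposide, 32 under genistein, 11 under mitoxantrone, 29 under p-benzoquinone and 26 under DMSO. It was dense under DMSO, at 1.45 (0.948 to 2.13), and sparse under etoposide, at 0.758 (0.327 to 1.49), with wide intervals that overlap.

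The second comparison sets each poison against the vehicle, as the number of CCRs in a gene divided by that under DMSO and scaled to list size. All 4 comparisons share the DMSO list, so a gene that is low or high under DMSO moves all 4 ratios together. Partners as a group gained or lost no detectable share of CCRs under any poison. Over the 9 partners together the etoposide ratio was 0.952 (exact binomial interval 0.765 to 1.18) and the genistein ratio 0.972 (0.818 to 1.15). The mitoxantrone ratio was 0.921 (0.744 to 1.14) and the p-benzoquinone ratio 0.982 (0.822 to 1.17). Each interval leaves out a change of 1.5-fold in either direction.

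Low values in the lists lie on steps of different size, and CCRs were put into a coarse and a fine step class by their values. The number of steps per list and the limit between the classes were set by hand. The mitoxantrone list was given a single step, so it could not hold both classes. Etoposide and DMSO hold both classes, genistein and mitoxantrone only the coarse one and p-benzoquinone only the fine one. Within the coarse class the pooled etoposide ratio was 0.878 (0.631 to 1.21), the genistein ratio 0.911 (0.725 to 1.15) and the mitoxantrone ratio 0.854 (0.652 to 1.12). Within the fine class it was 0.806 for etoposide (0.477 to 1.30) and 0.983 for p-benzoquinone (0.775 to 1.26). Every interval within a class also included 1. Values that fell in neither class or in both were left out. All values of 30 or more were among them, so the class ratios lack the highest values of every list. The share of values left out differed between whole lists, from 1.67% under p-benzoquinone to 34.4% under etoposide. In the partners the coarse class held 62 etoposide and 105 DMSO values, and the fine class 21 and 94. Beside them stand 134 etoposide and 239 DMSO CCRs in all. The part of this loss in the class ratios was not tested.

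Single partners were counted as past a 1.5-fold change among those with at least 10 CCRs in either list. This filter can admit a gene through its higher list alone. Among the partners past 1.5-fold it did so for CREBBP under etoposide, ELL under genistein and mitoxantrone, and MLLT1 under p-benzoquinone. The shares over all tested genes used the same filter. For etoposide over DMSO 0 of 8 partners were higher (10.5% of all tested genes) and 1 was lower (22.0%), which was CREBBP with 8 CCRs against 26 and a scaled ratio of 0.522 (0.204 to 1.19). CREBBP had 2 CCRs against 13 within the coarse class, a ratio of 0.229 (0.0251 to 1.01), and 0 against 6 within the fine class. Most of its 8 etoposide CCRs were left out of the classes, so these class values rest on a small part of them. For genistein over DMSO 1 of 9 partners was higher (15.9% of tested genes), MLLT10 with 30 CCRs against 14 and a ratio of 1.60 (0.823 to 3.27). ELL was the 1 partner lower under genistein (17.0% of tested genes), with 8 CCRs against 14 and a ratio of 0.427 (0.155 to 1.09). These 3 intervals all include 1. Within the coarse class neither gene was past 1.5-fold under genistein: MLLT10 had 27 CCRs against 8, a ratio of 1.18 (0.521 to 3.00), and ELL 7 against 3, a ratio of 0.814 (0.186 to 4.88).

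For mitoxantrone over DMSO 2 of 8 partners were higher (11.7% of tested genes) and 2 were lower (24.7%). The higher ones were MLLT10, with 19 CCRs against 14 and a ratio of 2.07 (0.986 to 4.47), and EPS15, with 15 against 14 and a ratio of 1.64 (0.737 to 3.66). Within the coarse class EPS15 had 10 against 10, a ratio on the other side of 1, at 0.741 (0.277 to 1.98). The lower ones were CREBBP, with 11 CCRs against 26 and a ratio of 0.647 (0.288 to 1.35), and ELL, with 3 against 14 and a ratio of 0.327 (0.0603 to 1.17). Of these 4 partners CREBBP alone was past 1.5-fold within the coarse class, with 9 CCRs against 13 and a ratio of 0.513 (0.194 to 1.30). The coarse-class ratio of MLLT10 was 1.48 (0.598 to 4.00), from 16 CCRs against 8, and that of ELL was 0.741 (0.0993 to 5.53), from 3 against 3.

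For p-benzoquinone over DMSO 1 of 9 partners was higher (22.4% of tested genes) and 1 was lower (12.5%), and they were the paralogs MLLT1 and MLLT3. MLLT1 held 19 CCRs against 6, a scaled ratio of 2.73 (1.05 to 8.36). This was the 1 of 36 single-gene ratios whose interval excluded 1. Within the fine class MLLT1 had 19 against 2, a ratio of 3.20 with an interval of 0.773 to 28.4 that included 1. MLLT3 held 24 against 32, a ratio of 0.647 (0.365 to 1.13), and within the fine class its ratio was 0.877 (0.409 to 2.04). The 4 h of p-benzoquinone exceeded the 1 h of the other poisons, so its values are set beside theirs without comparison.

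At a 2-fold limit fewer partners were counted. They numbered 0 higher and 0 lower for etoposide over DMSO (2.97% and 10.5% of tested genes) and 0 higher and 1 lower for genistein (6.31% and 7.08%). For mitoxantrone 1 was higher and 1 lower (3.84% and 11.5%), and for p-benzoquinone 1 was higher and 0 lower (9.26% and 4.39%). The partners past 2-fold were ELL for genistein, MLLT10 and ELL for mitoxantrone, and MLLT1 for p-benzoquinone. At 1.5-fold each count was within about 1 partner of the number that the share over all tested genes would give.

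**Figure D3:**
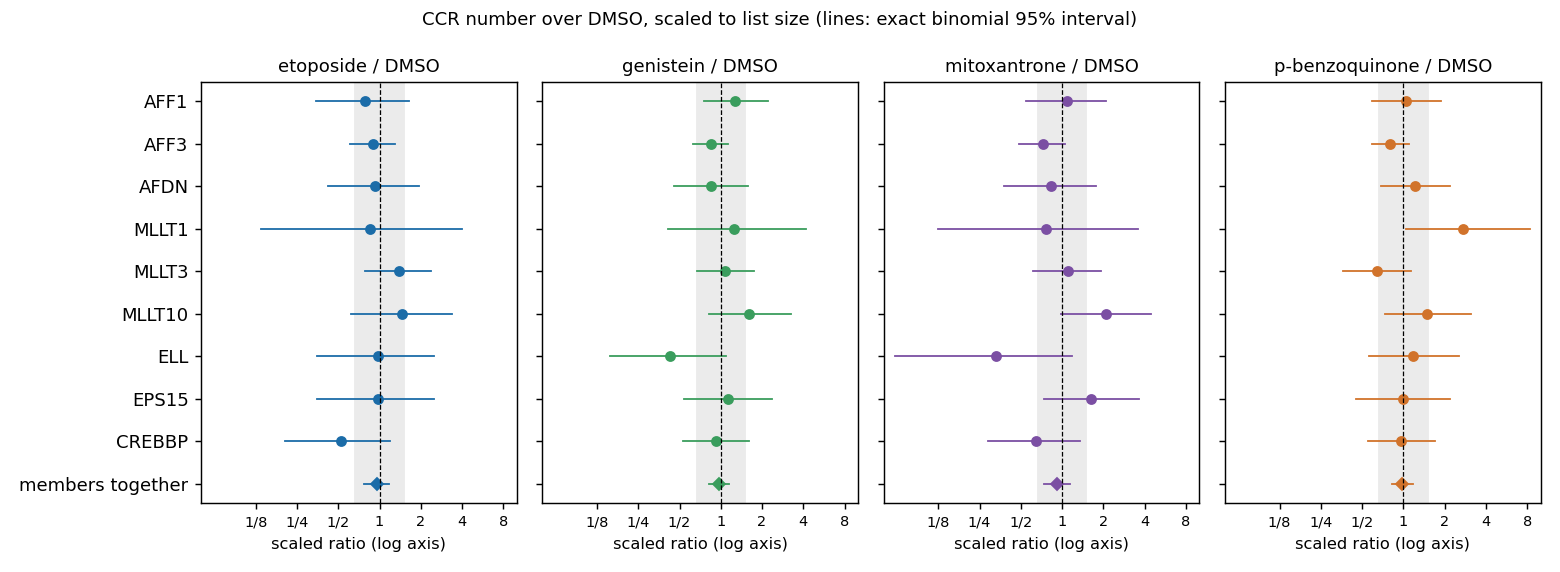
CCR number under each poison over DMSO, scaled to list size (x axis, log scale; dashed line at 1, grey band from 1/1.5 to 1.5), for each partner gene and for the 9 together, with exact binomial 95% intervals. MLLT1 under p-benzoquinone, at 2.73, is the 1 single-gene interval that leaves out 1; all 4 panels share the DMSO list.

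Ratios of 3 partners lay on one side of 1 for all 4 poisons. AFF3, dense under DMSO, had a scaled ratio of 0.898 under etoposide, 0.841 under genistein, 0.720 under mitoxantrone and 0.803 under p-benzoquinone. MLLT10, sparse under DMSO, had 1.46, 1.60, 2.07 and 1.48 in that order. CREBBP, with a vehicle density of 1.45, had 0.522, 0.919, 0.647 and 0.963. The intervals of all 12 ratios included 1. Within the step classes MLLT10 was below 1 under etoposide in the coarse class, at 0.929, and CREBBP above 1 under p-benzoquinone in the fine class, at 1.57. AFF3 stayed below 1 in each class, with etoposide ratios of 0.924 (0.524 to 1.60) in the coarse and 0.475 (0.146 to 1.21) in the fine class. Because the vehicle list enters each ratio, these are not 4 separate observations. How many of all tested genes lie on one side of 1 in the same way was not counted.

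Position along the gene was described because KMT2A fusions form in the introns of both genes, with most partner breakpoints in particular stretches. CCRs were spread over the whole length of each partner. Gene bodies were divided into 5 equal segments, numbered from the transcription start. Over the 9 partners together, segments 1 to 5 held 15.3%, 17.6%, 27.5%, 19.8% and 19.8% of the 131 CCRs inside gene bodies under etoposide. Under genistein the segments held 15.8%, 21.7%, 20.1%, 19.1% and 23.4% of 304, and under mitoxantrone 16.8%, 20.3%, 25.9%, 16.1% and 21.0% of 143. Under p-benzoquinone they held 21.9%, 20.8%, 18.5%, 18.9% and 20.0% of 265, and under DMSO 16.7%, 21.8%, 21.4%, 20.1% and 20.1% of 234. An even spread gives 20% to each segment. Only segment 3 under etoposide had an exact binomial interval (20.0 to 36.0) wholly on one side of that share, and then at its edge.

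Few single genes departed from an even spread. Of 110 segment shares in genes with at least 20 CCRs in a list, 1 had an interval that left out an even share. That was segment 1 of AFF3 under DMSO, with 9 of 87 CCRs or 10.3% (4.84 to 18.7). With the 5 lists counted together, 3 of 45 did, and the share over the segments of all genes was not counted. Segment 5 of MLLT10 held 29 of 97 CCRs, or 29.9% (21.0 to 40.0), segment 4 of CREBBP 12 of 105, or 11.4% (6.05 to 19.1), and segment 1 of AFF3 50 of 351, or 14.2% (10.8 to 18.3). The longest stretch of AFF3 without a CCR in any list, chr2:100080422-100108131, was 27.7 kb long and lay in that segment. A long non-coding RNA gene overlaps the end of MLLT10, and its bounds held 2 of the CCRs of MLLT10 under etoposide, 7 under genistein, 1 under mitoxantrone, 5 under p-benzoquinone and 2 under DMSO. The reads do not tell overlapping genes apart.

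**Figure D4:**
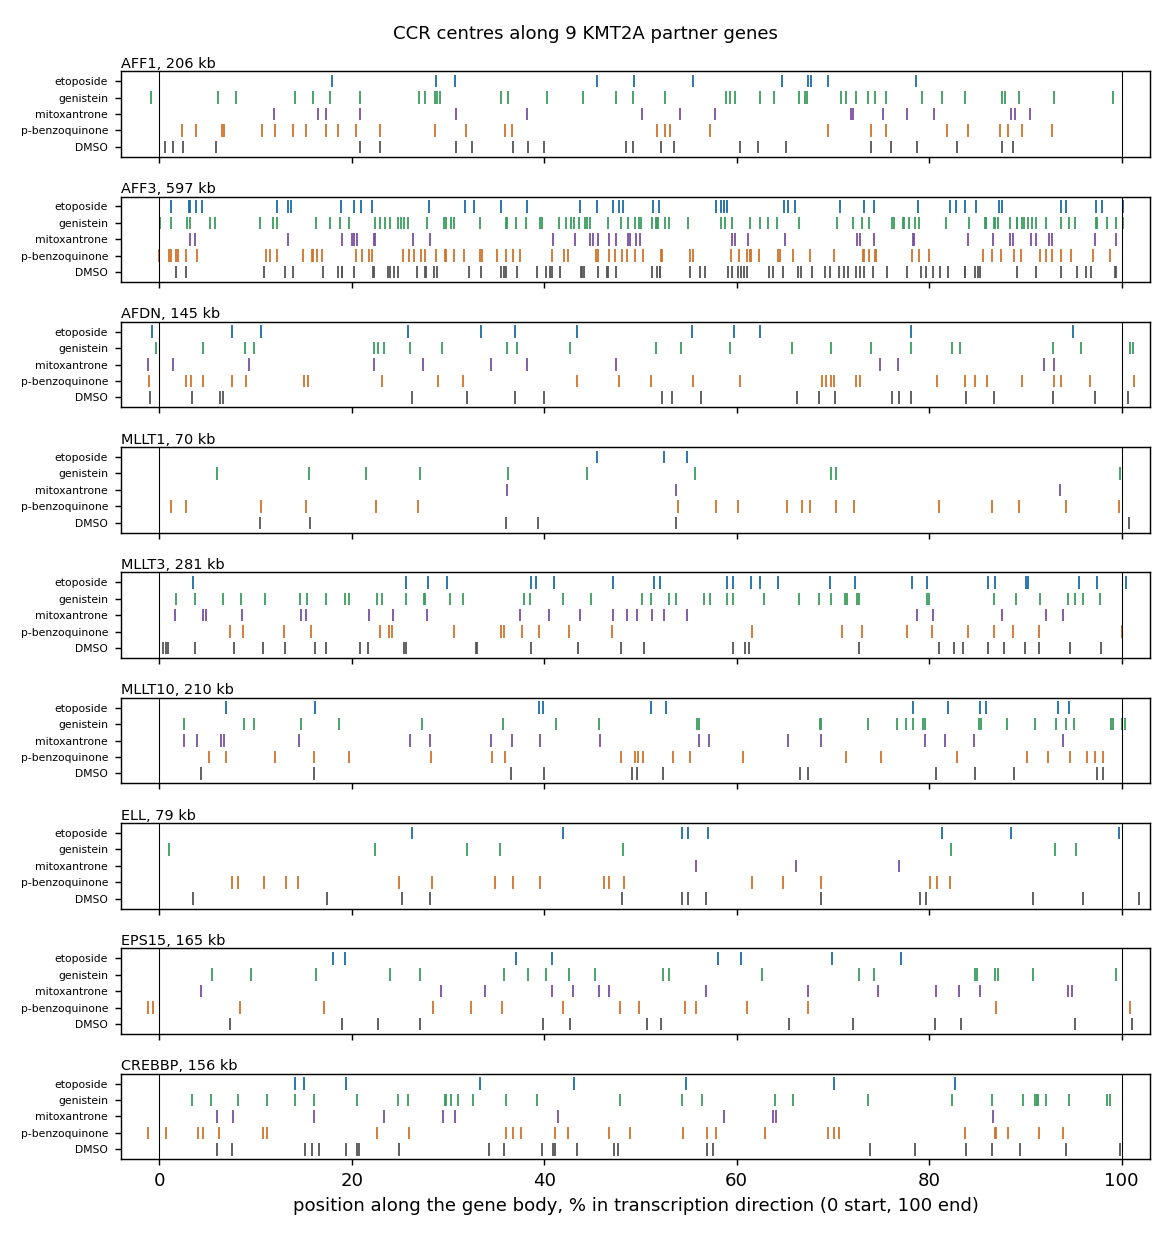
Centre of every CCR along each of the 9 measured partner genes (x axis, percent of the gene body in the direction of transcription, 0 at the start and 100 at the end), 1 row of ticks per list, DMSO lowest. Ticks run along the whole length of each gene, and AFF3 holds the most.

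The value the authors gave each CCR has no stated unit and ranks regions within a list only. Partner CCRs had median values of 8.64 under etoposide, 13.6 under genistein, 13.4 under mitoxantrone, 5.18 under p-benzoquinone and 5.77 under DMSO, beside list medians of 7.79, 12.9, 13.3, 4.83 and 6.24. Strong CCRs, those in the top 10% of their own list, made up 13.4% of partner CCRs under etoposide (8.16 to 20.4), 10.6% under genistein (7.42 to 14.6), 11.8% under mitoxantrone (7.03 to 18.2), 15.1% under p-benzoquinone (11.0 to 19.9) and 5.02% under DMSO (2.62 to 8.61). The p-benzoquinone interval lay above 10% and the DMSO interval below it. That 10% is over all CCRs of a list, inside genes or not. The share in other genes was not counted, so these shares are a description only. Leaving out each partner in turn gave 14.4% to 16.1% under p-benzoquinone and 4.23% to 5.33% under DMSO. Under etoposide the share rested on AFF3, where 12 of 46 CCRs, 26.1% (14.3 to 41.1), were in the top 10%, and without AFF3 it was 6.82%. The part of the coarse and fine step classes in these shares was not tested.

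**Figure D5:**
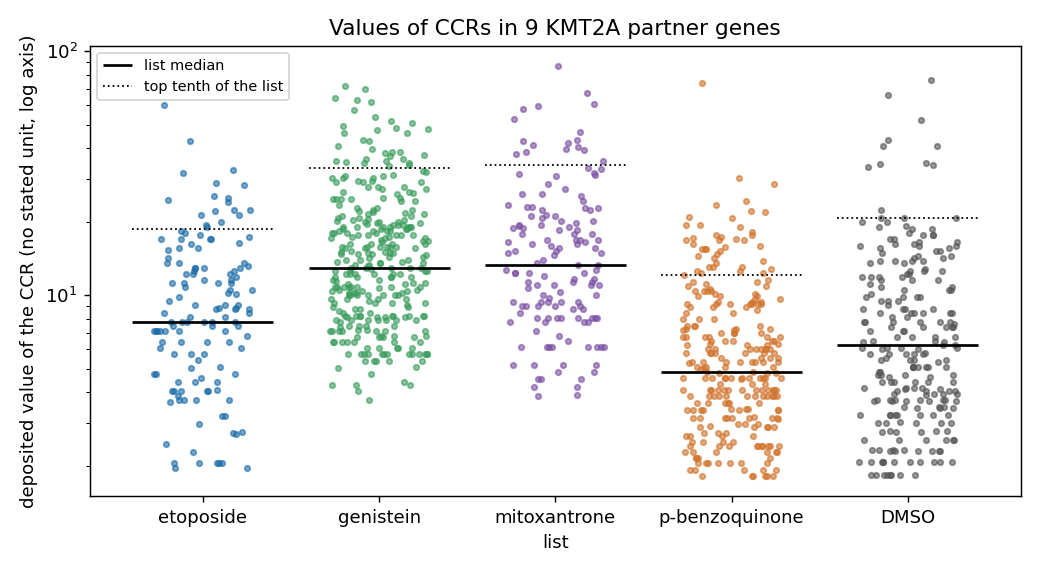
Deposited value of every CCR in the 9 measured partner genes (y axis, log scale, no stated unit), 1 column of points per list with DMSO at the right; solid lines mark the median of the whole list and dotted lines the limit of its top 10%. Values compare only within a column. On or above the dotted line lie 41 of 272 p-benzoquinone points and 12 of 239 DMSO points.

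A few partner CCRs ranked very high in their lists. The highest by rank lay inside AFF3 under p-benzoquinone, at chr2:99870301-99870498 and 45.6% along the gene, with a value of 73.95 that ranked 10 in the whole list of 359249. The same place had a mitoxantrone CCR of value 9.07 and a DMSO CCR of value 2.07, both below the medians of their lists. In CREBBP the strongest etoposide CCR, chr16:3751851-3752111, had a value of 60.11 and ranked 174. CREBBP also held the strongest partner CCR under DMSO, chr16:3806321-3806746, with a value of 76.48 and rank 388, so that a gene with few etoposide CCRs carried one of the strongest of that list. The strongest mitoxantrone CCR lay in EPS15, at chr1:51382066-51382225, with a value of 86.57 and rank 681. The strongest genistein CCR lay in AFF3, at chr2:99992209-99992885, with a value of 71.85 and rank 3287. In AFF1 a DMSO CCR at chr4:87059260-87059483 had a value of 66.32 and rank 769.

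The other 5 measured partners had their strongest CCRs, by percentile within a list, somewhat lower. In MLLT10 it was a p-benzoquinone CCR at chr10:21567365-21567721, with a value of 28.49 at percentile 99.4, and in MLLT3 a genistein CCR at chr9:20598405-20598635, with a value of 63.13 at percentile 98.7. AFDN had a DMSO CCR at chr6:167922684-167923194, with a value of 43.3 at percentile 98.6. In MLLT1 it was a mitoxantrone CCR at chr19:6242387-6242830, with a value of 60.94 at percentile 98.4, and in ELL a p-benzoquinone CCR at chr19:18456527-18457149, with a value of 21.95 at percentile 98.3. Lists differ in length, so ranks are comparable within a list only.

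The third comparison asks whether poison CCRs in the partners lay where the vehicle list already had one. Most did not. At least 1 bp was shared with a DMSO CCR by 16 of 134 etoposide CCRs in the partners, 11.9% (6.98 to 18.7), beside 8.39% over the whole list. For genistein it was 25 of 311, 8.04% (5.27 to 11.6), beside 6.79%, for mitoxantrone 15 of 144, 10.4% (5.95 to 16.6), beside 7.06%, and for p-benzoquinone 25 of 272, 9.19% (6.04 to 13.3), beside 7.88%. All 4 intervals included the share of their whole list. By gene, MLLT10 overlapped at 1 of 12 etoposide, 0 of 30 genistein, 0 of 19 mitoxantrone and 2 of 24 p-benzoquinone CCRs. MLLT3 overlapped at 4 of 26, 6 of 46, 0 of 23 and 2 of 24 in that order of poisons.

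Joining the lists gave 949 separate regions in the partners, of which 86.7% came from 1 list (87.8% over the genome), 18 from 3 lists, 3 from 4 lists and 0 from all 5. Regions from 3 or more lists made up 2.21% in the partners and 1.41% over the genome. Those from 4 lists lay in AFF3 at chr2:99582874-99583317 and chr2:99787319-99787778 and in AFDN at chr6:167961555-167962030. The first of these joined entries with no base in common to all, the second shared 107 bases among all 4 entries and the third 104 bases. The AFF3 region at chr2:99787319-99787778 had values of 24.74 under genistein, 31.77 under mitoxantrone, 6.03 under p-benzoquinone and 16.24 under DMSO. In AFDN the values were 31.18, 11.66 and 8.92 under the same poisons and 1.84 under DMSO.

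Among the regions from 3 lists, 1 lay in AFF3 near its start, at chr2:100123534-100123709, and had no DMSO entry. Its etoposide, genistein and mitoxantrone CCRs, with values of 11.18, 43.04 and 58.03, shared 163 bases. That mitoxantrone CCR was the strongest of AFF3 in its list. The other region without a DMSO entry was also in AFF3, at chr2:100135101-100135405, from etoposide, genistein and p-benzoquinone. How many regions from 3 or more lists lack a DMSO entry over the genome was not counted. By gene the 21 regions from 3 or more lists numbered 8 in AFF3, 3 in AFDN, 3 in MLLT3, 2 in AFF1, 2 in MLLT1 and 1 each in MLLT10, ELL and CREBBP. EPS15 had none among its 69 regions. In MLLT3 a region at chr9:20550385-20550539 shared 143 bases among CCRs of value 8.47 under etoposide, 9.32 under genistein and 2.30 under DMSO.

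Of 70 pairs of 14 annotated promoters and 5 lists, 1 had a CCR, the AFF3 stretch shown above, in the 300 bases that run from 250 before a start to 50 after it. Over all annotated promoters the share with a CCR was 2.56% under etoposide, 5.02% under genistein, 2.39% under mitoxantrone, 7.35% under p-benzoquinone and 4.85% under DMSO. Those shares would give 3.1 of 70, and nothing is read from the count of 1. The AFF3 CCR had a value of 13.5, and 138 of its 410 bases lay within those 300 bases. A genistein CCR, chr2:100141844-100141994 with a value of 29.06, had its centre 672 bp from the same start. The nearest DMSO CCR was 10732 bp away.

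The mitoxantrone list alone carries an input value per region, which bears on copy number and background. Input signal was 0 at 24 of 144 partner CCRs, 16.7% (11.0 to 23.8), beside 22.5% of the whole list. The median input value was 0.47 at partner CCRs and 0.23 over the list. Of the partners with more than 20 mitoxantrone CCRs, AFF3 had no input signal at 7 of 41 and MLLT3 at 7 of 23. The part of input signal in the other 4 lists was not tested.

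Other KMT2A partners numbered 34 genes, all measured. Their median cover over the genome mean was 1.10 under etoposide, 0.881 under genistein, 0.958 under mitoxantrone, 1.15 under p-benzoquinone and 0.911 under DMSO, beside 0.866, 0.891, 0.844, 1.09 and 0.976 over all measured genes. The 3 with the highest mean cover over the lists were USP2, a deubiquitinase, SEPTIN5, a septin, and ARHGAP26. ARHGAP26 held 45 CCRs under etoposide, 95 under genistein, 45 under mitoxantrone, 110 under p-benzoquinone and 72 under DMSO, and its cover was above the genome mean in all 5 lists, between 1.31 and 1.87. USP2 and SEPTIN5 are short, with 5, 4, 2 and 9 poison CCRs against 8 under DMSO in USP2 and 2, 1, 0 and 7 against 1 in SEPTIN5, so their cover rests on few CCRs.

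Among these 34 genes, 1 of 18 tested was at least 1.5-fold higher (10.5% of all tested genes) and 0 lower (22.0%) for etoposide over DMSO. The genistein list had 4 of 23 higher (15.9%) and 2 lower (17.0%). Under mitoxantrone 1 of 18 was higher (11.7%) and 3 were lower (24.7%), and under p-benzoquinone 4 of 25 were higher (22.4%) and 2 lower (12.5%). Another 10 genes encode elongation and DOT1L complex members outside the 10 partners described here. Some of them are also among the 34 genes or the paralogs below. Their median cover was 0.744 under etoposide, 0.639 under genistein, 1.32 under mitoxantrone, 0.827 under p-benzoquinone and 0.703 under DMSO. Cover was above the genome mean in 4 of these 10 under etoposide (42.7% of all measured genes) and in 4 under genistein (41.4%). It was above in 9 under mitoxantrone (40.6%), in 2 under p-benzoquinone (54.7%) and in 2 under DMSO (48.4%). The mitoxantrone list comes from 1 library, and each of the 10 held 8 or fewer mitoxantrone CCRs except AFF2, which held 44. Of 6 paralogs of the partners, AFF2 held the most CCRs, with 32 under etoposide, 83 under genistein, 44 under mitoxantrone, 46 under p-benzoquinone and 58 under DMSO. EP300, the paralog of CREBBP, held 3, 14, 2 and 11 under the 4 poisons and 7 under DMSO.

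The genes most like the 3 partners with the most CCRs were found by distance of log2 cover over the 5 lists, among 812 genes with at least 20 CCRs in every list. XKR4 and EPHB1 were nearest to AFF3, at distances of 0.17 and 0.18. NFIB and CHSY3 were nearest to MLLT3, at 0.23 and 0.27, and SLC44A5 and ADGRV1 to AFF1, at 0.23 and 0.33. NFIB, which lies on the same chromosome arm as MLLT3, held 48 CCRs under etoposide, 80 under genistein, 35 under mitoxantrone, 46 under p-benzoquinone and 50 under DMSO. With 5 points per gene, such likeness is a description only.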

How the data were processed

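TOP2A-bound DNA was immunocaptured from sonicated K562 lysates, released and sequenced, per the labels' protocols. The submitters' processing notes name hg38, SAMtools 0.1.19 and Bowtie2 2.1.0. The region caller, its settings and the pooling of libraries: not given in the sources used here. Per treatment 1 list of regions was deposited. The score deposited for each region has no stated unit and was used only to rank or filter within a list. The deposited mitoxantrone list also holds an input score, a log2 value that equals the log2 of treated over input score, and a p-value where the input score is 0; that p-value was not used. Depth per library is unknown, since the lists hold called regions.

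Regions on chromosomes 1 to 22, X and Y were kept, and overlapping genistein entries were joined at their highest value. Gene bodies came from RefSeq (GRCh38.p14), with 2 kb added on each side. Bins of 100 kb holding at least 1 region of some list made up the callable genome, 2763 Mb, and a gene counted as measured with at least 50% of its window callable. Poisson intervals are exact and ratios have exact binomial (Clopper-Pearson) intervals. They are over numbers of regions and cover counting error only, because each treatment has a single pooled list. Reads from PCR without molecular identifiers do not each stand for a molecule, which the intervals do not cover either. Classes of value steps left 34.4% of etoposide, 12.4% of genistein, 13.4% of mitoxantrone, 1.67% of p-benzoquinone and 21.0% of DMSO values out. Values of 30 or more were all among those left out. The number of steps per list and the limit between coarse and fine were set by hand, and the steps were then fitted to the values. No label names the classes, but the lists with both classes are those with both forms of library title. Whether the classes follow the titles, and what sets a step, was not tested. Joined regions count once per value in the classes. Likeness used log2(cover + 0.1). Counting, ratios and the assignment of values to steps given beforehand were tested on simulated data with known answers. The search for the steps was not tested in that way.

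The members and gene lists were chosen with earlier results of these data known. Named genes are all 10 partners, the 3 other partner genes with the highest mean cover, and the 2 genes nearest in cover to each of the 3 partners with the most CCRs. Named regions are the strongest CCR of a partner and regions from 3 or more lists, of which a part is printed. AFF2, EP300 and the promoter regions were named after their values were seen. Software was Python 3.11.15 with scipy 1.17.1, pandas 2.3.3, numpy 2.4.6 and matplotlib 3.10.9.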

Additional observations from a re-analysis of the deposited data

How the results depend on the processing

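No paired analysis was possible because the authors pooled each treatment into 1 list, and for the same reason no replicate could be left out. Of 146 alternative values for the partners together 126, and of 153 for single partners 147, kept the direction of a call and stayed within the counting interval of the value reported or within 1.5 times a count. Within the coarse class the EPS15 ratio of mitoxantrone over DMSO, 1.64 as reported, was on the other side of 1, at 0.741, though inside the reported interval. The 5 single-partner values outside their interval were all etoposide ratios within a class: in the fine one AFF1 at 0.301, AFF3 at 0.475, MLLT1 with 0 CCRs against 2 and CREBBP with 0 against 6, and in the coarse one EPS15 at 0.149 with 1 against 10. The cause was not tested. The density over the genome mean under etoposide was 0.849 as a median over partners, and under genistein 1.25 against the 1 Mb on each side. Scaled to those flanks, the pooled p-benzoquinone ratio over DMSO was 0.819. With overlap of at least 50% of the shorter region, 5.14% of genistein partner CCRs overlapped a DMSO CCR, and with values of at least 4, 5.68% of p-benzoquinone ones. Leaving out each partner in turn gave pooled etoposide ratios of 0.886 to 1.00, genistein ratios of 0.933 to 1.05, mitoxantrone ratios of 0.849 to 1.04 and p-benzoquinone ratios of 0.937 to 1.08. Among the alternatives, 2 were added after seeing the data: MLLT6 counted at 0, and the pooled ratio without MLLT1 and ELL on chromosome 19; neither moved a value beyond its interval.

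Counts of partners past the fold were small and moved easily. At 2-fold, 0 were lower for etoposide, 0 higher for genistein, 1 higher and 1 lower for mitoxantrone and 0 lower for p-benzoquinone. With values of at least 4, 0 were higher and 0 lower for genistein, 1 higher and 1 lower for mitoxantrone and 2 higher for p-benzoquinone. By covered bases, 1 was higher for etoposide and 1 lower for mitoxantrone. Scaled to the 1 Mb on each side, 1 was higher and 2 lower for etoposide and 2 higher for genistein. The cause of these moves was not tested. MLLT1 for p-benzoquinone over DMSO kept a ratio above 2 throughout, between 2.26 with values of at least 4 and 3.20 in the fine class.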
